A study of Mus musculus with 27 samples.

Results

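The 50 genes described here were higher in all 18 libraries of mitochondrial fission knockout clones than in any library of the unedited parental cells. They were chosen by their level in scaled counts (CPM, a gene's count scaled to a library total of 1000000). The parental mean had to reach 1 CPM, every knockout library had to exceed the highest parental library, and the mean of each of the 6 clones had to be at least 15% above the parental mean. Of 55401 genes in the table, 53 met this, and 50 are treated here, with Selp, Gbp2 and Gbp2b left out. Of the 50, 48 are annotated as protein coding, and the others are the mitochondrial 12S ribosomal RNA gene mt-Rnr1 and the processed pseudogene Gm9762.

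The cells were 4T1, a mouse mammary carcinoma line used to study metastasis. The knockout groups were Drp1 KO (gene Dnm1l, clones gs1B8 and gs2_B4), Fis1 KO (clones gs1_B11 and gs2_F6) and Mff KO (clones gs1_B4 and gs1_C8), made by CRISPR-Cas9 editing, set against parental 4T1 cells of genotype WT. Unedited WT 4T1 cells were also kept for 3 days with leflunomide, set against the vehicle DMSO. Each of the 9 groups had 3 libraries of polyA RNA. Each clone is 1 cell line, so a genotype rests on 2 clones. The guide sequences, the dose and the match between clone codes and the clone numbers in the public labels were not given in the sources used here. No label says whether the 3 libraries of a group were cultured apart, and a p-value then covers the spread among these libraries alone, which may be technical.

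Mitochondria divide when the dynamin-related GTPase Drp1 assembles in a ring around them and constricts the membrane. Mff and Fis1 are outer-membrane proteins, and Mff is a main receptor that brings Drp1 to the organelle. Loss of these factors leaves mitochondria longer and more connected. Leflunomide inhibits dihydroorotate dehydrogenase, an inner-membrane enzyme of pyrimidine synthesis, and has been reported to raise mitofusin levels and so to favour mitochondrial fusion.

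The 21 libraries of the knockout arm held 20715428 to 31295937 counts, and the 6 of the drug arm 18492020 to 24658747. Ribosomal RNA genes took 1.60% to 5.73% of counts in 26 libraries and 23.2% in DMSO replicate 3, which stands apart, so results that rest on it are also given without it. The targeted transcripts were lower in their own clones: Dnm1l stood at 31% and 18.8% of the parental mean, Fis1 at 42.1% and 34.9%, and Mff at 56.1% and 51.9%. The 8 carcinoma markers together measured 2474 to 3562 CPM in knockout libraries and 3050 to 3105 CPM in parental ones, although 1 of them, the tight-junction gene Cldn7, was at 0.0375 CPM or less in every knockout library against 12.5 to 13.1 CPM in parental cells. Markers of lymphocytes summed to at most 0.0439 CPM in knockout libraries and 0.162 CPM in parental ones, and those of endothelial cells to at most 0.900 and 0.483 CPM. Fibroblast markers summed to 2.27 to 9.09 CPM in knockout libraries and 4.39 to 4.44 CPM in parental ones, with 7 of the 8 under 1 CPM in every library and Col3a1 and Lum at 0. The part of these markers in the results was not tested. In bulk RNA, fewer cells that express a gene and less of its RNA per cell cannot be told apart.

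Of 11575 genes with a parental mean of 1 CPM or more, 110 (0.95%) had all 18 knockout libraries above the highest parental library, and 53 (0.458%) also met the minimum of 15% in each clone. In the opposite direction 386 genes had all 18 knockout libraries below the lowest parental library, and 191 also met the mirrored minimum. The threshold of 15% cut through a continuum. Just inside it lay Dock5, Plscr1 and Cdk18, whose lowest clone means were 1.152, 1.156 and 1.159 times the parental mean. Just outside lay Tnip2, Plet1 and Snx24, at 1.1497, 1.147 and 1.142. Of the 50 genes, 9 had a lowest clone ratio of 1.5 or more and 32 had one under 1.3, with a median of 1.26. Their parental means ran from 1.02 to 1210.5 CPM, with 12 genes under 5 CPM. In edgeR's quasi-likelihood fit of 13940 genes, 0.538% were called higher and 2.1% lower in all 6 clones at an adjusted p under 0.05, and 36 of the 50 (72%) were among those called higher. Since the same contrast chose the genes, nothing is read from that count, and levels in knockout against parental cells are given below as a description without a test.

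**Figure D1:**
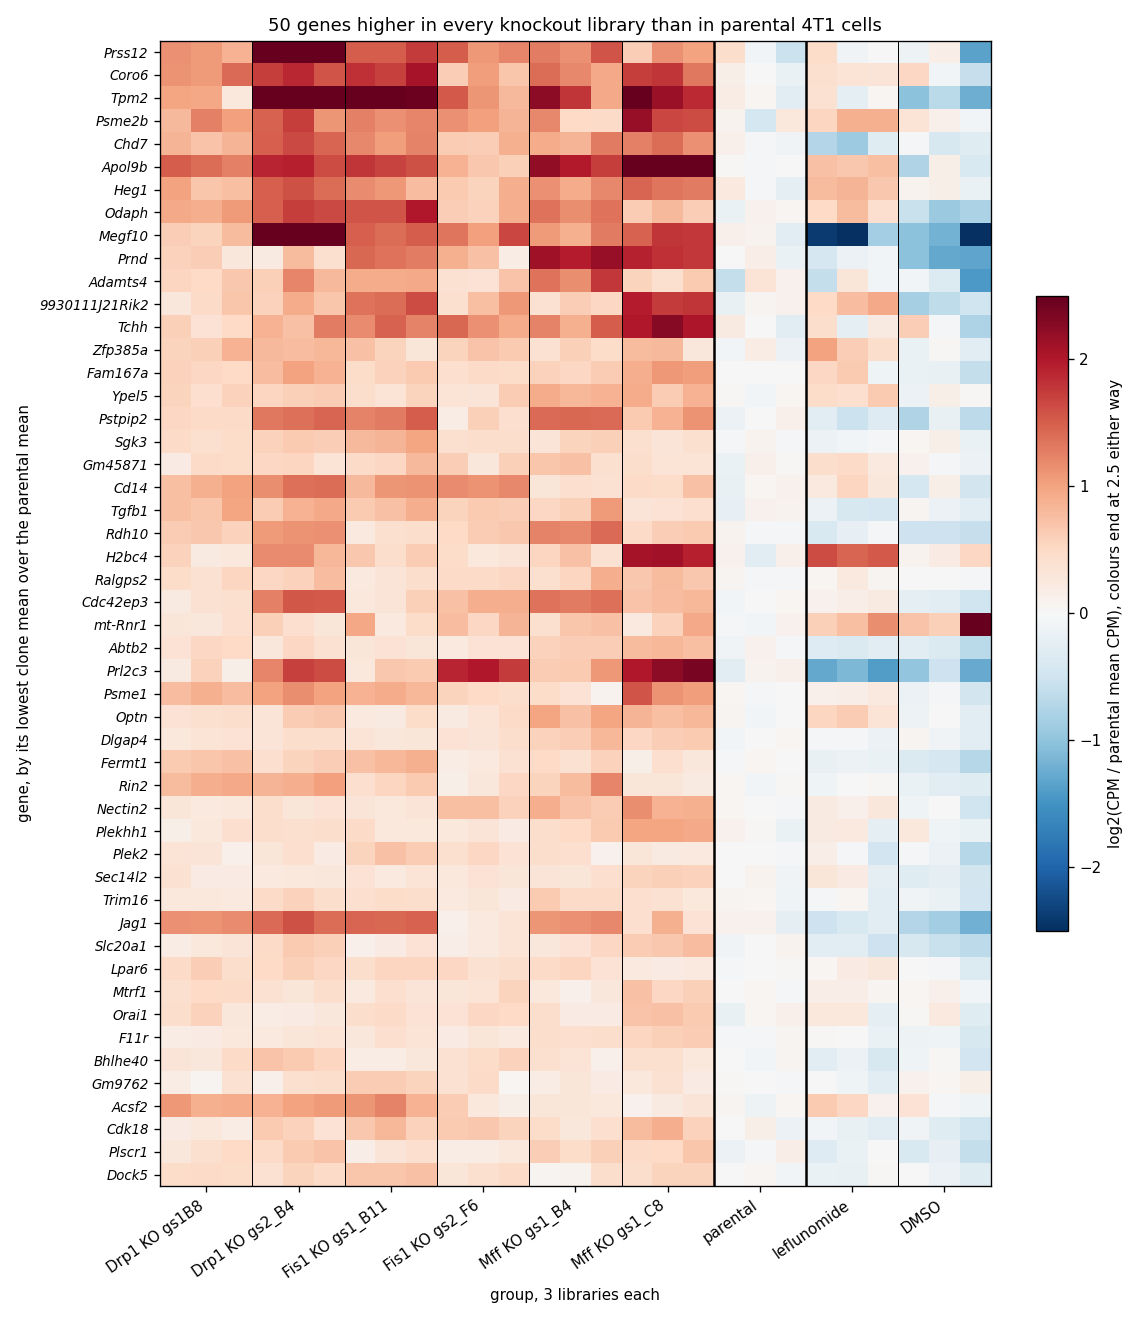
Heat map of the 50 genes (rows, in order of their lowest clone mean over the parental mean) in 27 libraries (columns, 3 per group), coloured by log2 of CPM over the parental mean CPM. The 18 knockout columns are above 0 in every row, as the rule requires, with the deepest colours in different clones for different genes, while the leflunomide and DMSO columns hold both colours.

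Tpm2 and Coro6, which had large margins, and Cdc42ep3, Plek2 and Dock5, which had small ones, act on actin filaments or on the GTPases that control them. Tpm2, which encodes a tropomyosin that lies along actin filaments (GRCm38 chr4:43514711-43523765), ranged over 2.51, 8.43 and 23.7 CPM (lowest, median and highest of 18 knockout libraries), against 2.37, 2.14 and 1.74 CPM in the parental libraries. The clone means differed widely, at 3.58 CPM in gs1B8 and 19.4 CPM in gs2_B4, and the lowest of them was 1.72 times the parental mean. Coro6, a member of the actin-binding coronin family (chr11:77462411-77470484), had 3.20, 5.54 and 8.74 CPM in knockout libraries, against 2.32, 2.1 and 1.88 CPM in parental ones. Its clone means lay closer together than those of Tpm2, between 3.63 CPM in gs2_F6 and 7.69 CPM in gs1_B11. Cdc42ep3, an effector of the small GTPase Cdc42 that organises actin and septins, had 41.2, 61.8 and 103.6 CPM in knockout libraries, against 34.0, 35.6 and 36.7 CPM in parental cells. Dock5, an exchange factor that activates Rac, was among the most abundant of the 50 and among the least changed, with clone means from 178 to 253 CPM against a parental mean of 155 ± 5.86 CPM (SD, n = 3). Plek2, a pleckstrin that acts in actin-based cell spreading, had clone means from 36.3 to 47.3 CPM against 30.3 ± 0.617 CPM (SD, n = 3).

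Genes of secreted proteases and growth factors were also present. Prss12, which encodes the secreted serine protease neurotrypsin (chr3:123446913-123506597), had the largest lowest clone ratio of all, 1.92. It had 1.62, 2.53 and 11 CPM in knockout libraries, against 1.45, 1.01 and 0.732 CPM in parental ones. The rule required the lowest knockout library to be above the parental range, and the parental libraries held only 71 counts of Prss12 in all. Clone gs2_B4, at a mean of 9.81 CPM, was far above the other 5 clones, whose means ran from 2.04 to 3.20 CPM. Adamts4, an aggrecan-cleaving metalloprotease (chr1:171250421-171260637), was at the lower limit of the rule, with 1.31, 1.64 and 3.49 CPM in knockout libraries, against 0.676, 1.29 and 1.1 CPM in parental ones. The highest parental library of Adamts4 nearly met the lowest knockout library. Tgfb1, the gene of the cytokine TGF-beta 1 (chr7:25687002-25705077), had 18.9, 23.8 and 31.5 CPM in knockout libraries, against 13.2, 16.2 and 16 CPM in parental ones, with gs1_C8 lowest at a mean of 19.5 CPM. Apart from Tgfb1, 32 genes of TGF-beta, BMP and activin signalling were tested, of which edgeR called 0 in the same direction in all 6 clones, also at an unadjusted p under 0.05, and DESeq2 0.

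Prl2c3, a gene of the proliferin group of prolactin-related hormones (chr13:12790816-12800079), was one of the most abundant, with 191, 384 and 897 CPM in knockout libraries, against 145, 185 and 190.1 CPM in parental ones. The lowest knockout library exceeded the highest parental library by little, but the means of gs2_F6 (643 CPM) and gs1_C8 (804 CPM, highest) were far above it. A near copy, Prl2c2, was lower in gs1_B11 (17.7 CPM) than in parental cells (20.7 CPM), and the split of reads between the near copies is uncertain.

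Some of the genes are tied to interferon and to antigen processing. Psme1 encodes the alpha subunit of PA28, the interferon-gamma-inducible activator that caps the proteasome (chr14:55578123-55581529). It had 45.2, 76.6 and 127 CPM in knockout libraries, against 44.0, 41.6 and 42.3 CPM in parental ones, from a mean of 52.9 CPM in gs1_B4 up to 102.5 CPM in gs1_C8. The beta subunit gene Psme2 was outside the 50, since clone gs1_B4 averaged 50.6 CPM against 49.7 CPM in parental cells, and Psme3, the gene of the nuclear activator PA28 gamma, averaged 218 to 272 CPM in the clones against 247 CPM. Psme2b (chr11:48945354-48946190), a near copy of Psme2, had 2.62, 4.24 and 8.48 CPM in knockout libraries, against 2.01, 1.39 and 2.26 CPM in parental ones. Its reads may come in part from Psme2, and it overlaps the gene 9930111J21Rik1, so its level is uncertain.

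Apol9b, one of the mouse apolipoprotein L genes (chr15:77729039-77736382), had 10.5, 22.6 and 91.5 CPM in knockout libraries, against 7.04, 6.78 and 6.95 CPM in parental ones. Clone gs1_C8 averaged 69.8 CPM and clone gs2_F6 11.4 CPM, the widest span between clones among the 50 at 6.12 times. Its near copy Apol9a averaged 84.5 CPM in gs1_C8 and 4.99 CPM in gs2_F6, against 4.64 CPM in parental cells, and reads cannot be assigned between them with certainty. The gene 9930111J21Rik2 (chr11:49015874-49051242), for which RefSeq gives the synonym Irgb5, a name of the immunity-related GTPase family, had 21.9, 29.8 and 70.4 CPM in knockout libraries, against 15.8, 19 and 19.4 CPM in parental ones. It too has a close copy, 9930111J21Rik1, which averaged 1.62 CPM in gs2_F6 and 4.42 CPM in gs1_C8, against 1.69 CPM in parental cells. Plscr1, a phospholipid scramblase also known as an interferon-induced gene, had clone means between 100.1 and 133 CPM against 86.6 ± 9.86 CPM in parental cells (SD, n = 3).

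Beside these genes, a list of 35 interferon-stimulated genes had 0 called in the same direction in all 6 clones by edgeR, 0 at an unadjusted p under 0.05 and 0 by DESeq2. Its median log2 fold change against parental cells was -0.20 in gs1B8, -0.01 in gs2_B4, -0.67 in gs1_B11, -0.04 in gs2_F6, 0.49 in gs1_B4 and 4.14 in gs1_C8. The high levels of Apol9b, 9930111J21Rik2 and Psme1 in gs1_C8 stand in the clone where that list was highest, and the part of the list's change in them was not tested. In gs1_B11, where the list was lowest, Apol9b averaged 22.3 CPM, 9930111J21Rik2 49.9 CPM and Psme1 77.9 CPM, and the rule itself placed every knockout library of these genes above the parental range. Apart from Psme1, 19 genes of MHC class I presentation were tested, of which edgeR called 0 higher and 0 lower in all 6 clones, with 1 higher and 0 lower at an unadjusted p under 0.05 and 0 by DESeq2.

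Promoter windows from RefSeq (GRCm38.p6, 250 bases before to 50 after the annotated start, 300 in all) could be matched to 35 of the 50 genes, as 42 windows. The 4 windows below are shown as examples: those of Psme1 and Apol9b (1 of its 2 windows) hold a match to an interferon element (GAAA, any pair of bases, then GAAA, on either strand), and those of 9930111J21Rik2 and Odaph hold a match to an AP-1 site (TGANTCA on either strand) and belong to genes called with leflunomide. Capitals mark every match to either of these motifs, and the Apol9b window holds both, the AP-1 match being the later one. Each sequence reads 5′ to 3′ on the gene's own strand.
Psme1, plus strand, chr14:55578244-55578543: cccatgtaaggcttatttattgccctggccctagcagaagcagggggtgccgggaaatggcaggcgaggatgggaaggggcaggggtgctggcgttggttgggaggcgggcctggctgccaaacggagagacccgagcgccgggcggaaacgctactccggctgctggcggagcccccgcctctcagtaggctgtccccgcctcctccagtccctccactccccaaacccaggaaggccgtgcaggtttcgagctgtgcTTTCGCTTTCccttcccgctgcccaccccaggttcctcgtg
Apol9b, plus strand, chr15:77728822-77729121: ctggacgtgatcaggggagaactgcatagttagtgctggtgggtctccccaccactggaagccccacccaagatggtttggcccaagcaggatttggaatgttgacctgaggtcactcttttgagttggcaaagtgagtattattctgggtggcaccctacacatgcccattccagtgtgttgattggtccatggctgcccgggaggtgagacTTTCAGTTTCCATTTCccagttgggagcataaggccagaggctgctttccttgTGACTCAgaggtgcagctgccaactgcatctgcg
9930111J21Rik2, minus strand, chr11:49051193-49051492: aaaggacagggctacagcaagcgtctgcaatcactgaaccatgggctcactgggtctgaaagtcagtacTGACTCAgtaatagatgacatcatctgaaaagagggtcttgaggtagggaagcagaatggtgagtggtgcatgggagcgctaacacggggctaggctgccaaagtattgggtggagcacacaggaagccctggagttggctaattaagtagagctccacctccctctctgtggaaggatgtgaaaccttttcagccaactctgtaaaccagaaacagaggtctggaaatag
Odaph, plus strand, chr5:91987223-91987522: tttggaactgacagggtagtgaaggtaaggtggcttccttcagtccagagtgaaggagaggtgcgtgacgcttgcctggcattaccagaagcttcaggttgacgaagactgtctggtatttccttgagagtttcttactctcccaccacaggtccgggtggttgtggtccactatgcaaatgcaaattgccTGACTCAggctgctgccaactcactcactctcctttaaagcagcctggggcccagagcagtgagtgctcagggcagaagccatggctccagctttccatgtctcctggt

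The interferon element was found in windows of 2 genes, Psme1 and Apol9b, with 2 overlapping matches in the run of capitals of Apol9b. Over windows, it was in 3 of the 42 (7.14%) and in 3.44% of all 32851 windows in the RefSeq table. The AP-1 letters were in 6 windows of 5 genes (9930111J21Rik2, Apol9b, F11r, Odaph and Prl2c3), or 14.3% of the windows against 7.81% of all. The 2 windows of Apol9b overlap and both hold the same interferon and AP-1 matches. Those matches therefore count more than 1 time in each of these shares. The TATA box (TATAAA) was in 4.76% against 13.6% of all windows. Other motifs differed less in share: 73.8% against 72.3% for the E-box (CANNTG), 38.1% against 37.4% for the CCAAT box, 16.7% against 14.7% for the TEAD site (GGAATG), 9.52% against 8.30% for the gamma-interferon element (TTCNNNGAA) and 2.38% against 1.79% for the cyclic AMP element (TGACGTCA). Matches to different motifs were counted separately and may overlap, and a match is only a run of letters.

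Chromatin genes were represented by a remodeller and a histone. Chd7, an ATP-dependent chromatin remodeller (chr4:8690406-8867659), had 19.7, 27.3 and 40.3 CPM in knockout libraries, against 14, 12.4 and 12 CPM in parental ones. All clone means were between 21.1 and 37.2 CPM, and the lowest knockout library was 1.41 times the highest parental one. Of 28 other chromatin remodelling genes tested, edgeR called 0 higher and 1 (Hells) lower in all 6 clones, and the counts were the same by DESeq2 and at an unadjusted p under 0.05. H2bc4, a histone H2B gene (chr13:23684199-23692908), had 5.31, 6.94 and 19.4 CPM in knockout libraries, against 4.89, 3.79 and 4.95 CPM in parental ones. Clone gs1_C8 averaged 18.7 CPM, and the other 5 clones averaged 5.80 to 9.53 CPM. Histone genes have many near-identical copies and their messages mostly lack a polyA tail, so this level is uncertain.

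Other genes encode proteins of the cell surface or that act on it. Heg1, a transmembrane protein known from endothelial junctions (chr16:33684370-33771576), had 6.13, 9.03 and 12.7 CPM in knockout libraries, against 4.92, 4.08 and 3.52 CPM in parental ones, and its clone means spanned 6.84 to 11.8 CPM. Megf10, a receptor for engulfment of dying cells (chr18:57133090-57297467), had 1.62, 2.97 and 8.50 CPM in knockout libraries, against 1.21, 1.17 and 0.915 CPM in parental ones. Like Prss12, it was highest in gs2_B4, at a mean of 7.87 CPM, with the other clones at 1.74 to 3.53 CPM. Prnd, which encodes doppel, a GPI-anchored relative of the prion protein (chr2:131950861-131956130), had 8.37, 15.7 and 33.1 CPM in knockout libraries, against 7.25, 8.24 and 6.54 CPM in parental ones. Its highest levels were in the Mff clones, with means of 31.2 CPM in gs1_B4 and 26.3 CPM in gs1_C8, and its lowest in the Drp1 clones, at 10.3 CPM each.

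Jag1, a ligand of Notch receptors (chr2:137081456-137116644), had 36.9, 73.9 and 101.5 CPM in knockout libraries, against 36.1, 36.4 and 28.4 CPM in parental ones. Clones gs2_F6 and gs1_C8, at means of 39.9 and 50.2 CPM, were well below the other 4, which averaged 74.3 to 93.2 CPM. Of 28 other genes of Notch, Wnt and Hedgehog signalling tested, 0 were called in the same direction in all 6 clones by edgeR, by DESeq2 or at an unadjusted p under 0.05. Fermt1 encodes kindlin-1, a protein that activates integrins from inside the cell (chr2:132904389-132945906), and had 129, 168 and 214 CPM in knockout libraries, against 112, 121 and 116 CPM in parental ones. Of 32 other integrin and focal adhesion genes tested, edgeR called 0 higher and 1, the integrin gene Itgb1, lower in all 6 clones, with the same counts by DESeq2 and at an unadjusted p under 0.05.

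F11r, the junctional adhesion molecule JAM-A (chr1:171437535-171464603), had 91.1, 99.8 and 124 CPM in knockout libraries, against 77.7, 77.2 and 83.8 CPM in parental ones. The difference was small, and its lack of overlap was required by the rule. Of 35 other genes of epithelial junctions and keratins tested, 2 (Krt17 and Pkp2) were called higher in all 6 clones by edgeR and 2 (the claudins Cldn3 and Cldn7) lower. Cd14, the co-receptor for bacterial lipopolysaccharide (chr18:36725067-36726798), had 8.98, 14 and 19.2 CPM in knockout libraries, against 6.42, 7.47 and 7.87 CPM in parental ones. Cd14 is also a macrophage marker, and the 8 macrophage markers together measured 18.9 to 33.9 CPM in knockout libraries and 15.5 to 17.9 CPM in parental ones, of which Cd14 itself gave 8.98 to 19.2 CPM and 6.42 to 7.87 CPM. Of these markers, Adgre1 was at 0 in every library, and Ptprc, Itgam and Fcgr1 stayed under 1 CPM everywhere, at most 0.202 CPM in any knockout library and 0.145 CPM in any parental one. Mrc1 ran from 0.0774 to 5.24 CPM in knockout libraries against 0.386 to 0.960 CPM in parental ones, Cd68 from 2.85 to 9.71 CPM against 4.24 to 4.63 CPM, and Csf1r from 0.629 to 4.33 CPM against 3.91 to 4.62 CPM. Their part in the level of Cd14 was not tested. The other surface genes had lowest clone ratios of 1.17 to 1.2: Nectin2 (a junction protein of the nectin family), Lpar6 (a lysophosphatidic acid receptor), Orai1 (the pore of store-operated calcium channels) and Slc20a1 (a phosphate transporter).

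The remaining genes with large lowest clone ratios have roles far from one another. Odaph, known for its part in tooth enamel formation (chr5:91987475-91995320), had 12, 17.5 and 32.3 CPM in knockout libraries, against 7.24, 8.65 and 8.32 CPM in parental ones. Tchh, trichohyalin, a structural protein of the hair follicle (chr3:93442330-93449077), had 1.43, 2.58 and 5.42 CPM in knockout libraries, against 1.3, 1.13 and 0.915 CPM in parental ones. Tchh was close to the minimum level of the rule, and Odaph was several times above it. Zfp385a, a zinc finger protein that binds p53 (chr15:103313895-103340093), was the most even of the 15 genes with the largest lowest clone ratio, with 2.33, 2.96 and 3.52 CPM in knockout libraries, against 1.83, 2.18 and 1.74 CPM in parental ones. Its highest clone mean was 1.25 times its lowest. Fam167a (chr14:63436394-63465498) was abundant and tight, with 123, 138 and 195 CPM in knockout libraries, against 92.7, 93.0 and 92.0 CPM in parental ones.

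Optn, Mtrf1 and mt-Rnr1 have roles in mitochondria or in their removal. Optn, an autophagy receptor that takes part in mitophagy (chr2:5020642-5064051), had 23.3, 27.8 and 39.9 CPM in knockout libraries, against 21, 19.1 and 20 CPM in parental ones, with the 2 Mff clones highest. Mtrf1, a mitochondrial translation release factor, had clone means from 8.42 to 11.1 CPM against 7.19 ± 0.173 CPM in parental cells (SD, n = 3). The 12S ribosomal RNA gene mt-Rnr1 had 1443, 1692 and 2355 CPM in knockout libraries, against 1178, 1154 and 1299.5 CPM in parental ones. Its partner, the 16S gene mt-Rnr2, was outside the 50, since its lowest knockout library was at 2423 CPM and its highest parental one at 2590.4 CPM. Ribosomal RNA is largely removed by polyA selection, and the part of the selection in these levels was not tested.

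The other members had lowest clone ratios from 1.16 to 1.36, although some, such as Pstpip2 and Rdh10, were far higher in single clones. Among signalling genes, Sgk3, a serum- and glucocorticoid-regulated kinase, had clone means of 38.0 to 54.1 CPM against 29.2 ± 1.68 CPM in parental cells (SD, n = 3, as for those that follow), Cdk18, a cyclin-dependent kinase, 20.9 to 30.7 CPM against 18 ± 1.78 CPM, and Ralgps2, an exchange factor for Ral GTPases, 14.6 to 18.8 CPM against 11.5 ± 0.427 CPM. Rin2, an exchange factor for the endosomal GTPase Rab5, had 23.2 to 36.5 CPM against 19.2 ± 0.855 CPM. The most variable of these genes between clones was Pstpip2, an F-BAR protein that binds membranes, at 8.12 CPM in gs2_F6 and 16.4 CPM in gs1_B4 against 6.12 ± 0.563 CPM.

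In metabolism and transcription, Rdh10, which oxidises retinol in the synthesis of retinoic acid, had clone means of 58.9 to 112 CPM against 45.7 ± 2.22 CPM in parental cells. Acsf2, a mitochondrial member of the acyl-CoA synthetase family, was near the lower limit at 2.04 to 3.71 CPM against 1.76 ± 0.125 CPM. Bhlhe40, a transcriptional repressor linked to the circadian clock, had 104 to 139 CPM against 89.4 ± 4.58 CPM. Trim16, a tripartite motif protein with a part in autophagy of damaged lysosomes, had 55.2 to 67.2 CPM against 46.4 ± 3.08 CPM, and Ypel5 had 12.9 to 17.5 CPM against 9.53 ± 0.42 CPM. The scaffold gene Dlgap4 had 28.3 to 36.6 CPM against 22.9 ± 0.904 CPM, and the lipid-binding Sec14l2 16.3 to 20.4 CPM against 13.6 ± 0.856 CPM. Abtb2, Plekhh1 and Gm45871 had lowest clone ratios of 1.25, 1.2 and 1.29. The pseudogene Gm9762 had 18.3 to 24 CPM against 15.7 ± 0.477 CPM, and its reads may come from its parent gene.

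**Figure D2:**
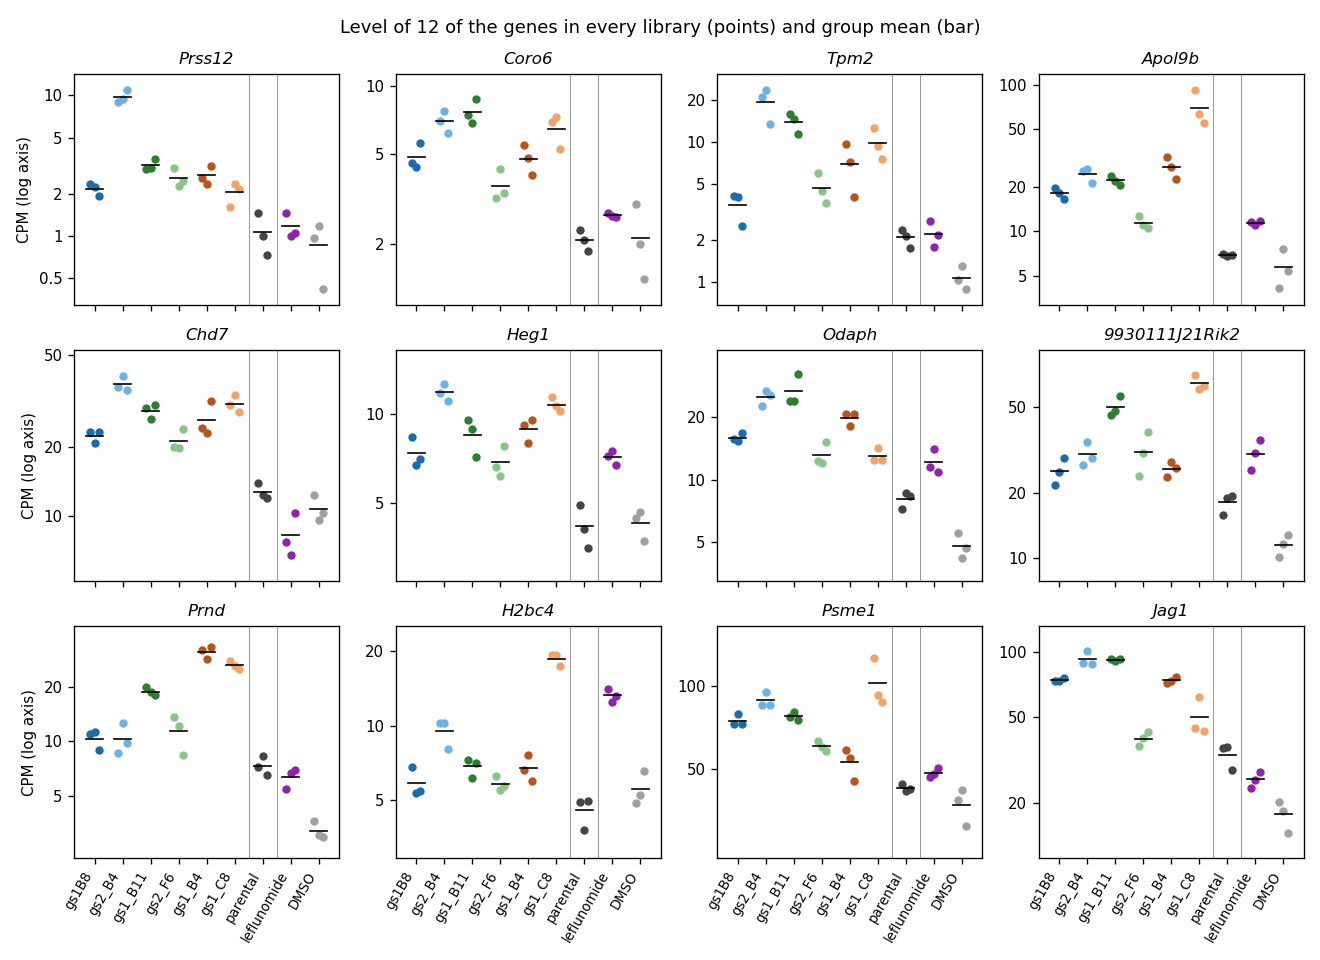
CPM (log axis) of 12 of the genes in every library, as points, with group means as bars, for the 6 knockout clones (left), parental, leflunomide and DMSO cells. Prss12 peaks in gs2_B4, and Apol9b, 9930111J21Rik2 and H2bc4 peak in gs1_C8. The leflunomide points lie above all DMSO points for every gene shown except Prss12, Coro6 and Chd7.

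How far the clones differed from one another was not set by the rule, but its minimum for each clone used the same knockout libraries. The comparisons between clones and between genotypes below are therefore not independent of the choice of genes. Shares and medians of the chosen genes are set beside those of all genes as a description. Nothing is read from the direction in which the called genes fall. The highest clone mean was 1.19 to 6.12 times the lowest, with a median of 1.55 and 15 genes at 2 times or more. Clone gs1_C8 was the highest of the 6 for 18 genes, gs2_B4 for 14, gs1_B4 for 9, gs1_B11 for 8, gs2_F6 for 1 (mt-Rnr1) and gs1B8 for 0. Clone gs2_F6 was the lowest for 14 genes and gs1B8 for 11. The median ratio to parental cells was 1.62 in gs1_C8, 1.61 in gs2_B4, 1.53 in gs1_B4, 1.52 in gs1_B11, 1.40 in gs1B8 and 1.39 in gs2_F6. The order of these medians was not tested.

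Between the Drp1 clones, gs2_B4 was higher than gs1B8 for 20 of the 50 (40%) and lower for 0, where 20.1% of 13940 genes were called higher and 20.9% lower by edgeR's quasi-likelihood test. At an unadjusted p under 0.05 the counts were 24 and 2, against 23.9% and 24.3% of all genes, and DESeq2 called 20, all higher, against 16.3% of genes higher and 16.5% lower. In both directions together, 40% of the 50 and 41% of all genes were called. The largest differences were Tpm2 (log2 fold change 2.42), Prss12 (2.16) and Megf10 (2.16), followed by Prl2c3 (1.19) and Cdc42ep3 (1.1). The median over the 50 was 0.22, against 0.00 over all genes tested. Dnm1l averaged 41.5 CPM in gs2_B4 and 68.6 CPM in gs1B8.

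Between the Fis1 clones, gs1_B11 was higher than gs2_F6 for 19 (38%) and lower for 5, where 24.7% of all genes were called higher and 22.9% lower, or 48% of the 50 and 47.6% of all in both directions together. Tpm2 (1.59), Jag1 (1.24), Coro6 (1.1) and Odaph (1.04) were higher in gs1_B11, while Prl2c3 was lower by the largest amount (log2 fold change -1.32, at 253 CPM in gs1_B11 and 643 CPM in gs2_F6). The median over the 50 was 0.15. Fis1 averaged 20.04 CPM in gs1_B11 and 16.6 CPM in gs2_F6. Between the Mff clones, gs1_C8 was higher than gs1_B4 for 20 (40%) and lower for 11, where 28.3% of all genes were called higher and 26.4% lower, or 62% of the 50 and 54.7% of all in both directions together. H2bc4 (1.45), Prl2c3 (1.39), Apol9b (1.33) and 9930111J21Rik2 (1.3) were higher in gs1_C8, and Adamts4 (-0.94), Rdh10 (-0.73) and Rin2 (-0.64) lower. The median over the 50 was 0.10. Mff averaged 44.4 CPM in gs1_C8 and 48.02 CPM in gs1_B4. The clone with more of the 50 called higher thus had less target transcript for Drp1 and Mff, and more for Fis1. A link between target level and these genes was not tested.

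**Figure D3:**
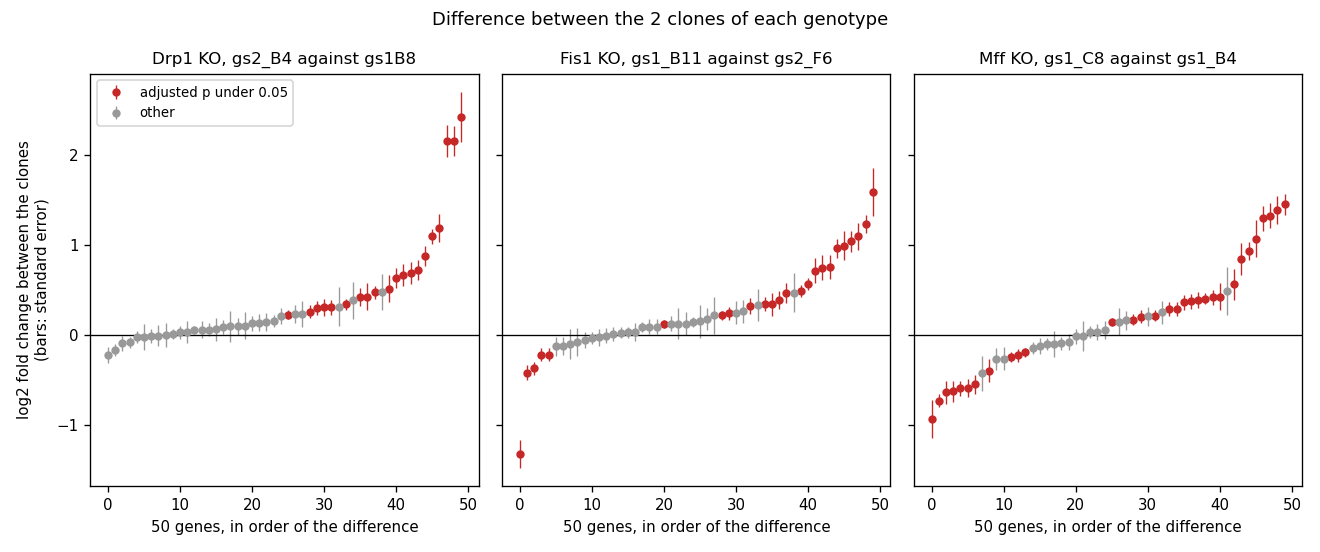
Log2 fold change (± standard error) of each of the 50 genes between the 2 clones of a genotype, sorted within each panel, with genes at an adjusted p under 0.05 in red. The red points are all above 0 between the Drp1 clones (20 genes) and lie on both sides between the Fis1 clones (19 above, 5 below) and the Mff clones (20 above, 11 below).

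The genotypes were compared with each clone as 1 replicate, on counts summed over its 3 libraries, in a fit of 15513 genes. Of the 50, edgeR called 0 in each of the 3 contrasts, where it called 0% of all genes between Drp1 and Fis1 clones and 0.00645% (1 gene) in each of the other contrasts. At an unadjusted p under 0.05 there were 1, 3 and 4 of the 50 for Drp1 against Fis1, Drp1 against Mff and Fis1 against Mff (2%, 6% and 8%), against 2.05%, 6.14% and 8.33% of all genes. DESeq2 called 0, 1 and 0, against 0.0958%, 1.49% and 2.45% of the genes to which it gave an adjusted p. Prnd came nearest between Drp1 and Mff clones: the Drp1 clone means were 10.3 and 10.3 CPM and the Mff clone means 31.2 and 26.3 CPM (log2 fold change -1.43 ± 0.28 SE, adjusted p = 0.557). Between Fis1 and Mff clones Cd14 had the smallest p, with means of 14.7 and 16.4 CPM in Fis1 clones and 9.38 and 10.7 CPM in Mff clones (0.73 ± 0.21, adjusted p = 0.542), and Optn was next, with 24.8 and 25.6 CPM in Fis1 clones and 37.6 and 35.1 CPM in Mff clones (-0.43 ± 0.14, adjusted p = 0.544). For these genes the clone means of the 2 genotypes did not overlap, and none passed the threshold. They were named for their small p and the share of all genes without such overlap was not computed, so nothing is read from this. Between Drp1 and Fis1 clones the smallest p was that of mt-Rnr1, at 1528 and 1646 CPM in Drp1 clones and 1819 and 1995 CPM in Fis1 clones (-0.30 ± 0.11, adjusted p = 1). The others named by the smallest p, with their log2 fold changes, were Prnd (-0.60), Plek2 (-0.30) and Rin2 (0.43) between Drp1 and Fis1 clones, Cd14 (0.71), Nectin2 (-0.50) and Tchh (-0.93) between Drp1 and Mff clones, and Prnd (-0.83) and Apol9b (-1.43) between Fis1 and Mff clones, none of which passed.

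The DMSO libraries were a further set of unedited 4T1 cells that the rule did not use. In 42 of the 50 genes all 3 DMSO libraries were below all 18 knockout libraries, where 3.4% of the 11575 genes with a parental mean of 1 CPM or more were so, and without DMSO replicate 3 the values were 43 and 3.49%. Since the knockout libraries were chosen for being high, this shows only that cells of the other arm did not reach them. The 8 exceptions were H2bc4, Mtrf1, Gm9762, Orai1, Tchh, Plekhh1, mt-Rnr1 and Acsf2, and in all but mt-Rnr1 the DMSO mean was still below the lowest clone mean. For mt-Rnr1 the DMSO libraries had 1971, 1830.4 and 8263 CPM, and the highest of them is DMSO replicate 3, the library with 23.2% of its counts in ribosomal RNA genes.

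The DMSO mean was below the parental mean in 37 of the 50, and in 84.5% of the 11575 genes. The median ratio of DMSO over parental was 0.860 for the 50 and 0.911 for all. Without DMSO replicate 3, whose high ribosomal RNA share lowers the CPM of other genes, these values were 34 of the 50, 54% of all, 0.943 and 0.991. Prnd, Odaph and Tpm2 were lower beyond the range of both sets: Prnd had 3.61, 3.03 and 2.96 CPM in DMSO libraries against 6.54 to 8.24 CPM in parental ones, Odaph 5.51, 4.22 and 4.69 CPM against 7.24 to 8.65 CPM, and Tpm2 1.02, 1.3 and 0.892 CPM against 1.74 to 2.37 CPM. In all, 18 of the 50 had every DMSO library below the lowest parental library, where 17.1% of the 11575 genes did, and 2 had every one above the highest, where 0.734% did. Without DMSO replicate 3, 18 of the 50 and 17.6% of all genes had both other libraries below the lowest parental library. The arm, its culture and the vehicle cannot be told apart here.

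**Figure D4:**
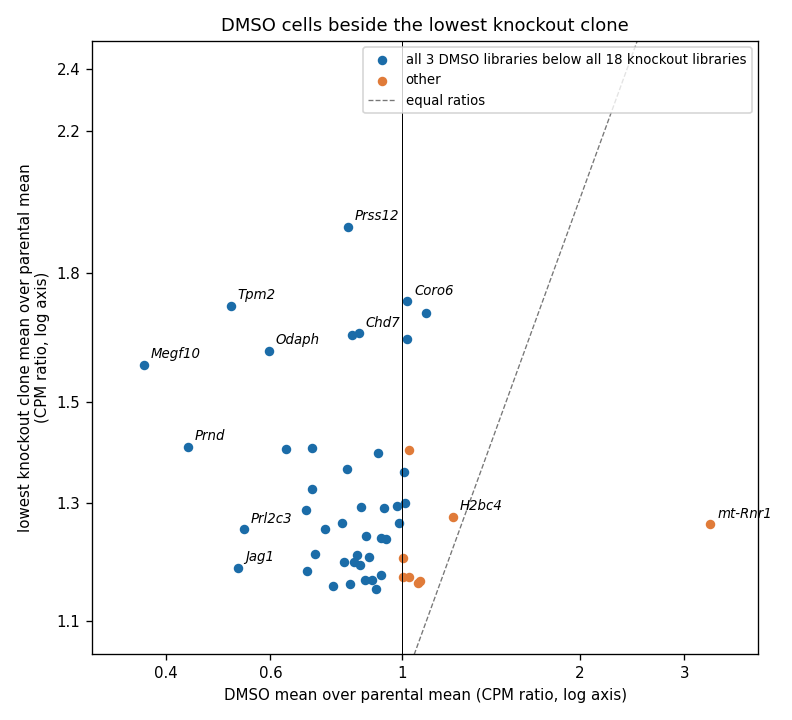
DMSO mean over parental mean (horizontal, log axis) against the lowest knockout clone mean over parental mean (vertical, log axis) for the 50 genes. Points left of the dashed line of equal ratios, 49 of the 50, have a DMSO mean below the lowest clone mean, and mt-Rnr1 is the point to its right.

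Leflunomide was compared with DMSO in libraries that the rule did not use. Of the 50, 49 passed the low-count filter of that fit (Megf10 did not), 6 (12.2%) were called higher and 0 lower, where 1.84% of 12603 genes were called higher and 0.944% lower by edgeR at an adjusted p under 0.05. At an unadjusted p under 0.05 there were 17 higher and 6 lower, against 10.8% and 10.1% of all genes. DESeq2 called 9 higher and 1 lower (Prl2c3), against 3.07% and 2.74% of the genes to which it gave an adjusted p. The log2 fold change was positive for 35 and negative for 14, with a median of 0.21, against 50.7% positive and a median of 0.00 over all genes tested. These shares describe the 50 and are not a test of them as a set. The 8 macrophage markers together measured 21.5 to 26.3 CPM with leflunomide, against 10.7 to 14.1 CPM with DMSO. Csf1r had 5.43 to 9.61 CPM with leflunomide against 1.8 to 2.33 CPM with DMSO and Cd68 6.69 to 7.31 CPM against 3.02 to 3.57 CPM, both called higher among the 3 markers tested. Adgre1, Fcgr1 and, with DMSO, Itgam were at 0, Ptprc was at most 0.157 CPM, and the part of these markers in the results was not tested.

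The 6 called genes were Odaph, 9930111J21Rik2, H2bc4, Heg1, Prnd and Optn. Odaph had 11.4, 14 and 10.9 CPM with leflunomide, against 5.51, 4.22 and 4.69 CPM with DMSO (log2 fold change 1.19 ± 0.16 SE, adjusted p = 0.0141). 9930111J21Rik2 had 25.4, 30.7 and 35.1 CPM with leflunomide, against 10.2, 11.7 and 12.7 CPM with DMSO (1.26 ± 0.21, adjusted p = 0.0256). H2bc4 had 14.1, 12.4 and 13.2 CPM with leflunomide, against 4.84, 5.24 and 6.54 CPM with DMSO (1.1 ± 0.21, adjusted p = 0.0348). In each of these the lowest leflunomide library was well above the highest DMSO library. Heg1 had 7.21, 7.49 and 6.69 CPM with leflunomide, against 4.44, 4.65 and 3.71 CPM with DMSO (0.62 ± 0.12, adjusted p = 0.0419). Prnd had 5.48, 6.66 and 6.98 CPM with leflunomide, against 3.61, 3.03 and 2.96 CPM with DMSO (0.87 ± 0.18, adjusted p = 0.0428), and so stayed below the parental range of 6.54 to 8.24 CPM in 1 library and inside it in the others. Optn had 29, 31.2 and 25.3 CPM with leflunomide, against 18.3, 20.3 and 16.8 CPM with DMSO (0.50 ± 0.10, adjusted p = 0.0466).

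Several others came near the threshold without passing it. Cdc42ep3 had 38.0, 39.9 and 41.2 CPM with leflunomide, against 29.7, 29.4 and 25.2 CPM with DMSO (adjusted p = 0.0589), and Apol9b 11.5, 11 and 11.7 CPM against 4.11, 7.65 and 5.34 CPM (adjusted p = 0.0726). The near copy Apol9a passed, at a log2 fold change of 1.03 ± 0.21 (adjusted p = 0.0448). Prl2c3 was the lower one of this group, with 71.9, 79.3 and 66.1 CPM with leflunomide, against 87.7, 122 and 72.9 CPM with DMSO (-0.49 ± 0.12, adjusted p = 0.0776). Chd7, with 7.73, 6.81 and 10.3 CPM against 12.4, 9.68 and 10.4 CPM, and Tgfb1, with 13.6, 11.5 and 11.3 CPM against 15.9, 13.7 and 12.7 CPM, had negative fold changes that did not pass (-0.50 and -0.35, adjusted p = 0.204 and 0.138). In 23 of the 50 all 3 leflunomide libraries were above all 3 DMSO libraries, where 15.3% of the 11575 genes with a parental mean of 1 CPM or more were so. Without DMSO replicate 3 these were 23 and 15.7%. In 11 the leflunomide mean reached the lowest knockout clone mean, against 1 for the DMSO mean. The rule set the lowest clone mean above that of unedited parental cells, and the share over all genes was not computed. Nothing is therefore read from these counts.

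The leflunomide calls rested on few libraries. Without leflunomide replicate 2, DMSO replicate 1 or DMSO replicate 2, edgeR called 0 of the 50, and calls over all genes also dropped, to 0.0623%, 0.0857% and 0.14% higher. Without leflunomide replicate 1 there were 2 (Odaph and 9930111J21Rik2), where 0.936% of all genes were called. Without DMSO replicate 3 there were 3 (these and H2bc4), against 1.29% of all. Without leflunomide replicate 3 there were 9, of which 1 (Chd7) was lower, and calls over all genes also rose, to 5.74% higher and 6.65% lower. The sign of the 6 called genes did not change under any of the 12 alternatives run. The median log2 fold change of the 50 stayed between 0.14 and 0.21 in these 6 fits and the full one.

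**Figure D5:**
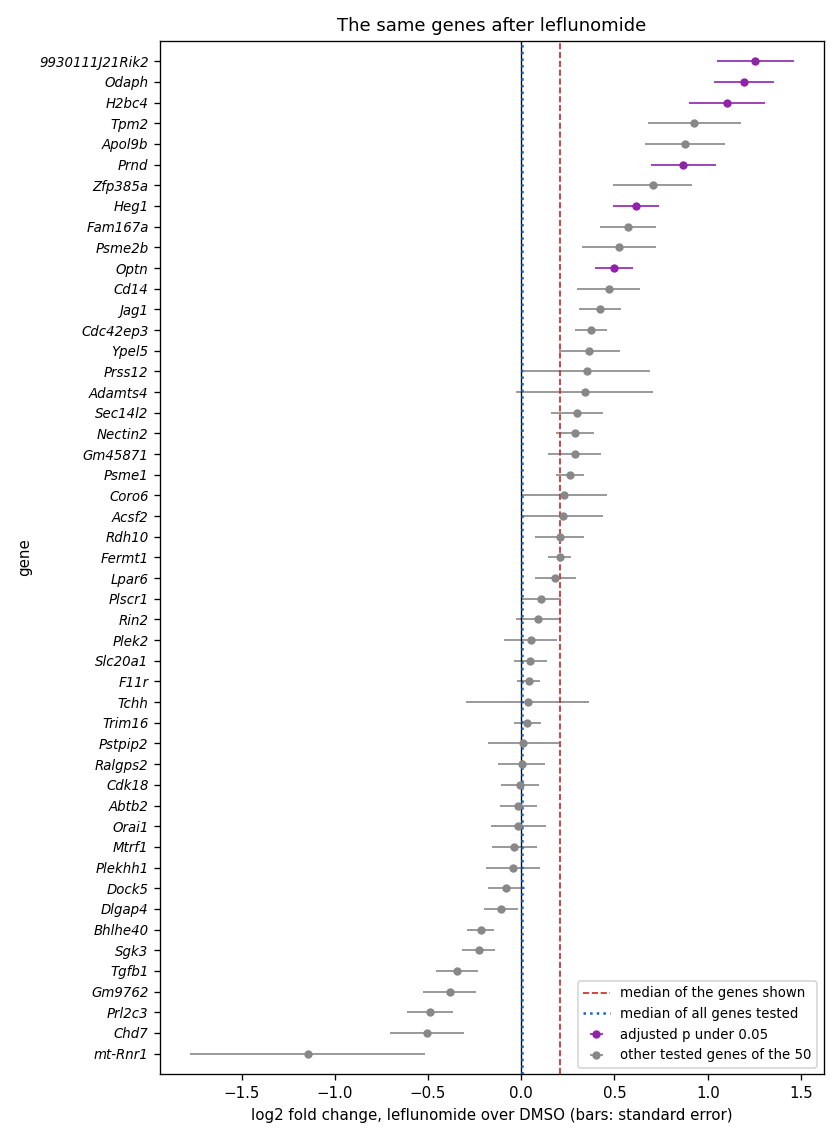
Log2 fold change of leflunomide over DMSO (± standard error) for the 49 tested genes, sorted, with the 6 at an adjusted p under 0.05 in purple. The dashed line marks their median of 0.21 and the dotted line the median of all genes tested, 0.00.

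Over the genome the 50 lay on most chromosomes. Chromosome 2 held 8 (16%, against 8.06% of genes with a parental mean of 1 CPM or more), chromosomes 1 and 11 held 6 each (12%, against 5.79% and 8.09%), and chromosome 14 held 5 (10%, against 3.40%). Within 200 kb of each other lay 3 pairs: Adamts4 and F11r (177 kb apart), Plek2 and Plekhh1 (122 kb) and Psme2b and 9930111J21Rik2 (69.7 kb). For Psme2b and 9930111J21Rik2 the copies in the same region make the counts uncertain. The positions are described without a test.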

How the data were processed

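RNA of 27 4T1 libraries was extracted with TRIzol Plus and made into polyA libraries with a KAPA kit, per the labels' protocols. The authors trimmed reads with Trimmomatic 0.35 and deposited RSEM expected counts per gene on GRCm38 (mm10), per the submitters' processing notes. The counts were not normalized between libraries, 91.5% of values were whole, and all were rounded for fitting. The sources used here do not name the RSEM version or the aligner.

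The members were found on unrounded CPM. The members, the gene lists and the tests were chosen with earlier results of these data known. Columns were assigned to clones by the codes in their names.

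Tests used R 4.3.3 with edgeR 4.0.16: filterByExpr, TMM, the two-sided quasi-likelihood test and Benjamini-Hochberg adjustment over all genes tested, with a threshold of 0.05. The 6 drug libraries were fitted alone, the 21 libraries of the knockout arm together for clones of 1 genotype, and 6 clone sums for genotypes. SE is that of the fitted log2 fold change. The fits were tested on simulated data. Named with values were the 15 members with the largest lowest clone ratio, members on a list, members called with leflunomide, up to 4 members with the smallest p per genotype contrast, and the 3 genes either side of the threshold. Others are named with fewer values, and Cdc42ep3, Prl2c3, mt-Rnr1, Plek2 and Mtrf1 were singled out after their values were seen, as were the genes named between clones of 1 genotype. Alternatives were DESeq2 1.42.0, other scalings, no low-count filter, other thresholds, all 27 libraries in 1 fit, a replicate block and leaving out each library. Plots used Python 3.11.15, pandas 2.3.3, numpy 2.4.6 and matplotlib 3.10.9.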

Additional observations from a re-analysis of the deposited data

Results flagged for a closer look

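Within groups of 6 libraries of 1 genotype, 4 of 150 sets of values (50 genes in 3 genotypes) had 1 library set apart by a wide gap. Each set holds 3 libraries of each of 2 clones that can differ. A rate expected for 6 alike libraries therefore does not apply, and the count is only a description. Adamts4 was at 2.39 CPM in gs2_B4 replicate 2, above the other Drp1 KO libraries. Cd14 was at 12.7 CPM in gs1_B11 replicate 1, below the other Fis1 KO libraries, and at 12.1 CPM in gs1_C8 replicate 3, above the other Mff KO libraries. Tgfb1 was at 31.5 CPM in gs1_B4 replicate 3, above the other Mff KO libraries.

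By the edgeR test of one clone against the other, 20 of the 50 genes (40%) were called between the Drp1 clones, 24 (48%) between the Fis1 clones and 31 (62%) between the Mff clones, where 41%, 47.6% and 54.7% of all genes tested were called. The shares between the Drp1 clones and between the Fis1 clones are thus near those of all genes. The rule chose the genes on these same libraries, so the shares are only a description.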

How the results depend on the processing

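The number of genes that met the rule followed its minimum ratio, with 9 at 1.5 times, 18 at 1.3 times and 107 with no minimum. Each is a subset of the next by construction. With TMM effective library sizes 60 genes met it, 44 of them among the 50, and with DESeq2 size factors 61, 47 of them among the 50. With leflunomide, DESeq2 called 10 of the 50 (5.82% of all genes given an adjusted p) and edgeR without a low-count filter 11 (3.99% of all). The 1 fit of all 27 libraries called 21 (16 higher, 5 lower, 17.9% of all), against 2.79% of all in the fit as reported. Leaving out 1 library gave 0 to 9, where 0.0778% to 12.4% of all genes were called. Of the 6 genes called with leflunomide, Odaph and 9930111J21Rik2 kept their call in 9 of 12 alternatives and Heg1 and Optn in 5, and the cause was not tested. Between genotypes, a fit with the 3 libraries of a clone as replicates called 22 (Drp1 against Fis1), 29 (Drp1 against Mff) and 30 (Fis1 against Mff) of the 50, against 36.8%, 54.2% and 57% of all genes, and DESeq2 called 1 (Drp1 against Mff). Such fits treat libraries of 1 clone as independent.

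The column names carry a serial number that forms 3 runs, and with the run as a replicate block edgeR called 24, 32 and 32 of the 50 between genotypes (with libraries as replicates, 40.5%, 57% and 59.7% of all genes), 24, 26 and 33 between clones of 1 genotype (44.5%, 50.6% and 57.3% of all) and 7 with leflunomide (2.79% of all). With leflunomide the replicate block kept 4 of the 6 calls, lost Heg1 and Optn, and added Apol9b and Cdc42ep3 as higher and Prl2c3 as lower. Libraries of 1 run paired weakly. In the knockout arm the median correlation of their deviations was 0.0622, 0.0694 and 0.116 in the 3 runs. Between runs it was -0.0201, -0.0343 and -0.0567, and single pairs of 1 run went down to -0.0967. In the drug arm the 1 pair of each run had 0.205, 0.0146 and 0.24, against medians of -0.0879, -0.00495 and -0.186 between runs. Of the 50, 38 had a parental mean of 5 CPM or more, and depth limits the 12 under 5 CPM most: Adamts4 rests on 70 parental counts.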
